A study of Mus musculus with 7 samples.

Results

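The genes described here are 52 genes listed as antiviral effectors and regulators of the type I interferon response, read in type 1 conventional dendritic cells (cDC1) sorted from lung. The list does not mean that each gene answers to type I interferon alone. They were taken by gene symbol as the rows of the deposited expression table that carry 1 of the 52 names in the platform annotation, out of 25428 probe sets in all, and each of the 52 names matched a probe set. The rule uses no measured value, but the list itself was chosen with earlier results of these data known. A probe set is the group of array probes that read 1 gene. For description the genes were divided by what their products do into 7 role groups.

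Type I interferons bind a receptor of 2 chains, IFNAR1 and IFNAR2, which signals through Janus kinases to the transcription factor complex ISGF3. ISGF3 and the interferon regulatory factors (IRFs) bind the interferon-stimulated response element (ISRE), while STAT dimers bind the gamma-activated site (GAS), the element through which interferon gamma acts. The induced proteins bind, cut or sequester foreign RNA, stop translation, alter membranes that viruses cross, and tag proteins with the ubiquitin-like modifier ISG15. Dendritic cells both make and respond to interferon, and sensing of type I interferon by cDC1 is known to aid their cross-presentation of tumor antigens to CD8 T cells.

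The arrays compare cDC1 from lungs with late tumors, KP(l), with cDC1 from normal lungs, nLung. KP(l) were C57/BL6 mice that had received 100000 cells of the KP lung tumor line into the tail vein, with lungs taken at day 28, and 3 arrays were made. nLung were mice of the same strain, labelled as healthy controls and injected with PBS by the study's methods, and 4 arrays were made. Each array read RNA of cDC1 sorted from pooled lungs of 2 to 3 mice, amplified before hybridization to Mouse Gene 2.0 ST arrays, so the spread between arrays is that between pools, not between animals. Tumors came from 1 transplanted cell line, the age of the mice was not given in the sources used here, and no group is labelled as given interferon.

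The values are log2 expression from RMA, a method that subtracts background, brings the probes of all arrays to 1 distribution and summarizes the probes of a gene. Array medians lay between 3.49 and 3.57. The upper quartile of an array was 5.11 to 5.17 in replicates 1 and 2 of KP(l) and of nLung, and 5.22 to 5.28 in the remaining 3 arrays, so that the 7 arrays formed a set of 4 and a set of 3, and the labels name nothing that these sets share. The cDC1 label was borne out by its markers. All 12 of 12 were measured, none had a mean below the median of all probe sets, and their summed linear expression was 11302, 13100 and 14381 in KP(l) and 13328, 12091, 14390 and 14211 in nLung. Markers of other cells also varied, in single arrays or between the groups. The 13 measured of 14 alveolar macrophage markers summed to 2373, 1520 and 212 in KP(l) against 1576, 421, 229 and 407 in nLung, with 1 of them, Cidec, below the median of all probe sets on average. The 6 neutrophil markers summed to 1545, 56.1 and 47.8 in KP(l) against 46.7, 47.1, 62.5 and 44.9 in nLung, and 5 of the 6 lay below that median on average. KP(l) replicate 1 had the highest sum as well for the 8 T or NK cell markers (290, against 67.4 to 115 in the other arrays). Of these, Cd3e, Cd8b1 and Gzma were highest in it, and the rest were not. Cd8b1 read 7.77 there and 3.48 to 4.13 in the other arrays, and 5 of the 8 lay below that median on average. The sum of the 5 measured of 6 B cell markers was also highest there (81.2, against 30.6 to 37.1). All 5 lay below that median on average, and of them Cd79b and Ms4a1 were highest in that array.

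Plasmacytoid dendritic cells are known as strong producers of interferon, and 7 of 8 of their markers were measured, Klk1 of them below the median of all probe sets on average. Their sums were 231, 277 and 217 in KP(l) and 261, 270, 315 and 249 in nLung, so the groups overlapped. Of the 7, Tcf4 (-0.70) and Siglech (-0.57) were lower and Ly6d (0.88) was higher in KP(l) with an unadjusted p under 0.05, and Tcf4 and Ly6d did not overlap between the groups. Of the 4 measured of 6 mature dendritic cell markers, the chemokine Ccl22 was lower (-0.46), while Ccr7 (-0.04), Fscn1 (-0.02) and Socs2 (0.06) differed little. Their sums were 2286, 2730 and 4288 in KP(l) and 3826, 3546, 4101 and 3941 in nLung. Ccr7 read 10.03 in KP(l) replicate 3 and 7.90 to 9.04 in the other arrays. Of the epithelial or tumor cell markers, Epcam was lower (-0.50) and Cdh1 (0.48) and Krt18 (0.45) were higher. Sftpc differed most of them, by -1.90 (unadjusted p = 0.0945 by limma). Of the B cell markers Cd79b was higher (0.89), and the others ran from -0.05 (Pax5) to 1.02 (Ms4a1). Krt18 and Cd79b lay below the median of all probe sets on average. Among the cDC1 markers Clec9a was lower (-0.33) and Itgae higher (0.36). The markers with an unadjusted p under 0.05 all had an adjusted p of 0.912 by limma. The part of any of these shifts in the interferon genes was not tested.

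**Figure D1:**
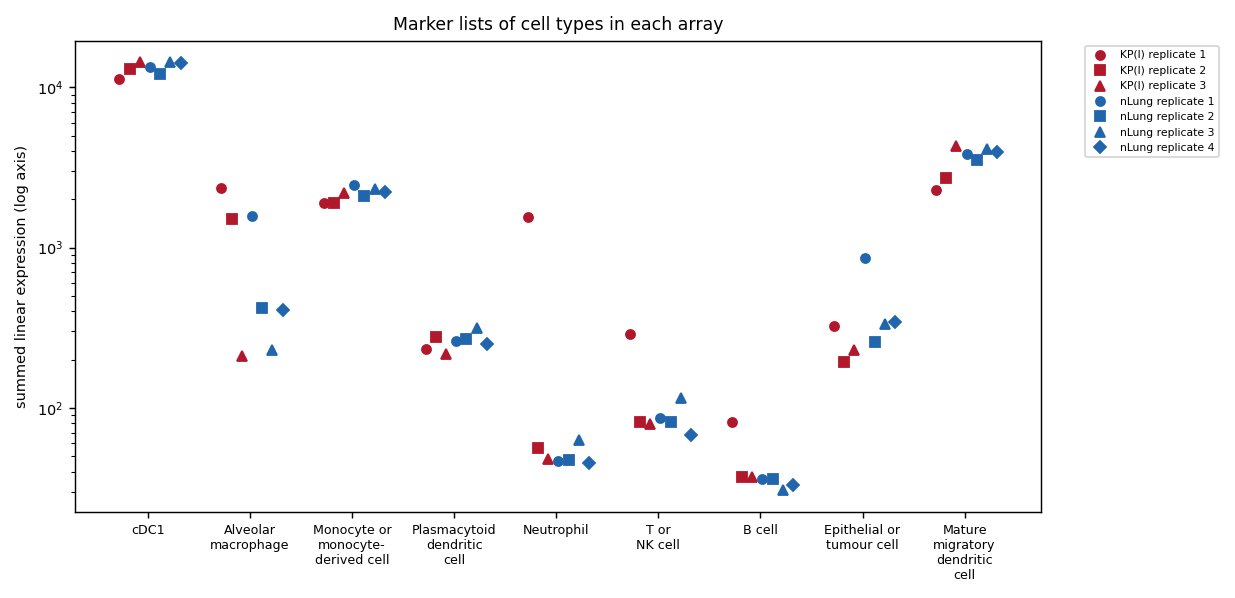
Summed linear expression (log axis) of the marker genes of 9 cell types in each of the 7 arrays, with KP(l) in red to the left of nLung in blue. The cDC1 sums were 11302 to 14381 in KP(l) and 12091 to 14390 in nLung, while neutrophil markers reached 1545 in KP(l) replicate 1 and at most 62.5 in the other arrays.

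Start sites of the genes were read for the letters of both response elements, because these are the sequences through which the induced state is known to act. The window ran from 250 bases before the RefSeq start site to 50 after it (GRCm38.p6), and 41 of the 52 genes had an entry, in 52 windows. The core of the ISRE was searched as 2 copies of GAAA with any 2 bases between them and, on the other strand, as 2 copies of TTTC spaced alike, and the GAS as TTCNNNGAA, which reads the same on both strands. ISRE core letters stood in 15 of the 41 genes (36.6%) and in 3.99% of the 27025 genes with a window. GAS letters stood in 12 of the 41 (29.3%) and in 9.55% of all genes. A match is a description of letters and not evidence of binding, and a window without a match says only that these letters are not in it. The windows below are those of Isg15, Ifitm3, Ifitm2 and Irf7, which are 4 of the 5 genes with a difference of 2-fold or more, of Ifit3, an effector with a small difference, and of Ifi203, which was lower and whose window with a match is shown out of 2. Each is written 5′ to 3′ on the strand of its gene, with ISRE core and GAS letters in capitals, and all came from RefSeq.
Isg15 (chr4:156200769-156201068, minus strand): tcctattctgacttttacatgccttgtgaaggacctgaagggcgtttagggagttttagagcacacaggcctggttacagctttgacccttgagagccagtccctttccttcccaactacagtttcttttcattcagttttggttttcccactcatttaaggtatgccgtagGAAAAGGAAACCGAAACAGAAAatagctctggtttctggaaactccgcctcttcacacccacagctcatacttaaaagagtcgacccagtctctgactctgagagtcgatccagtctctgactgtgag
Ifitm3 (chr7:141010695-141010994, minus strand): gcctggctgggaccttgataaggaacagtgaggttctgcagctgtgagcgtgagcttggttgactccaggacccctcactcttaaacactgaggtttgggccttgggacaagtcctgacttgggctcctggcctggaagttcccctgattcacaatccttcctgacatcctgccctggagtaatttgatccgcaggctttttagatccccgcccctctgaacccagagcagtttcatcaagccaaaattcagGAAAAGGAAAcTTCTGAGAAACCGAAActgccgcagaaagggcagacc
Ifitm2 (chr7:140955912-140956211, minus strand): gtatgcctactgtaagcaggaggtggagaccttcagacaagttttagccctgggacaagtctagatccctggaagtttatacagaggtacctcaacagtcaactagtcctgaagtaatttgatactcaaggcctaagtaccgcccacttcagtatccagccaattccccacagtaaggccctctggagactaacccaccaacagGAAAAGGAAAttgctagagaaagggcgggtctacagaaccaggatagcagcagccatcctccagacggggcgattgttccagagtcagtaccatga
Irf7 (chr7:141266375-141266674, minus strand): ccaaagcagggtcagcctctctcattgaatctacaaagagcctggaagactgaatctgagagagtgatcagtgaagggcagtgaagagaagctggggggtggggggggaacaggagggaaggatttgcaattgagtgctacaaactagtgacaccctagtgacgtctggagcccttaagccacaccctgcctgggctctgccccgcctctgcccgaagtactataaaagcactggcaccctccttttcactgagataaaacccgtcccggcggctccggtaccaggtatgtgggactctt
Ifit3 (chr19:34583279-34583578, plus strand): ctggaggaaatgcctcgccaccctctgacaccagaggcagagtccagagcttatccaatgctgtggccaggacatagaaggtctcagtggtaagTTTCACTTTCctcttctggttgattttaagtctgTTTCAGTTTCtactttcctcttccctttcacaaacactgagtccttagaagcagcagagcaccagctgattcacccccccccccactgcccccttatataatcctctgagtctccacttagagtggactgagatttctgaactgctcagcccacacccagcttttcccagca
Ifi203 (chr1:173942443-173942742, minus strand): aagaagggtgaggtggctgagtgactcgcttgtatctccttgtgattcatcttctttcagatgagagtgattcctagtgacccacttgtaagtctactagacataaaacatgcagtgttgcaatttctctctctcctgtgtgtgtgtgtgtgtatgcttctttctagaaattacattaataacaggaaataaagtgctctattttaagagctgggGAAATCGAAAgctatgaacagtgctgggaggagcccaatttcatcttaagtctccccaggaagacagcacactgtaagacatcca
In Isg15 the 3 ISRE cores overlap and form a run from base -78 to base -57 relative to the start site. In Ifitm3 the capitals follow the start site, with ISRE cores at 2 to 11 and 19 to 28 and a GAS at 13 to 21 that overlaps the second core. The Ifitm2 core lies at -46 to -37 and the Ifi203 core at -35 to -26, while Ifit3 holds 2 cores on the other strand, at -156 to -147 and -122 to -113. The Irf7 window holds neither set of letters.

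None of the 52 genes was called in KP(l) against nLung, where a call needed a fold of at least 2 and a limma p, after Benjamini-Hochberg adjustment across the whole table, no larger than 0.05. Of the 25428 probe sets, 0.0% were called. The smallest adjusted p among the 52 was 0.816 (Ifi30) and among all probe sets 0.502. Of the 52 genes, 34 (65.4%) had a log2 fold change above 0, against 54.6% of all probe sets, and their median was 0.12 against 0.02. Without adjustment, p was under 0.05 in 9 genes (17.3%, against 4.86% of all probe sets), namely in 7 genes that were higher in KP(l) (13.5%, against 2.62% of all probe sets) and in 2 that were lower (3.85%, against 2.24%). The 7 were Ifi30, Ifitm3, Irf7, Ifitm1, Cmpk2, Isg15 and Irf1, and the 2 were Ifi27 and Ifi203. A fold of 2 or more was reached upward by 5 genes (9.62%, against 0.979% of all probe sets) and downward by 0 (against 0.865%). The groups were apart, with no nLung array inside or beyond the KP(l) range, in 5 genes that were higher in KP(l) (9.62%, against 2.12%) and in 2 that were lower (3.85%, against 1.72%). Because the genes were chosen with earlier results of these data known, these shares are descriptions and not a test of the list. In sorted bulk RNA, a changed share of contributing cells and a changed amount of RNA per cell cannot be told apart.

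**Figure D2:**
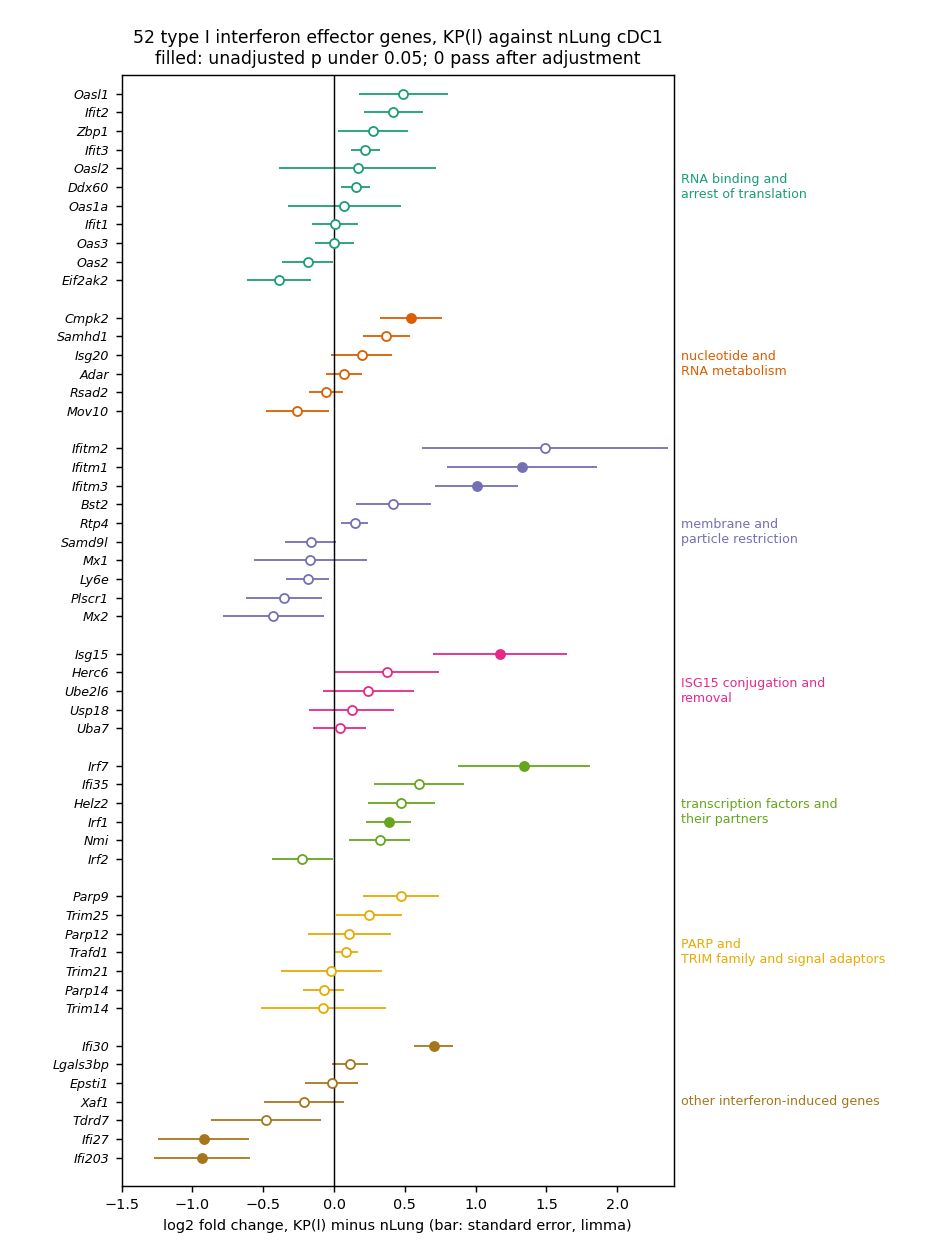
Log2 fold change of each of the 52 genes, KP(l) minus nLung, with its standard error, ordered within the 7 role groups. Filled points mark the 9 genes with an unadjusted limma p under 0.05, 7 to the right of 0 and 2 to the left, and 47 of the 52 lie within 2-fold.

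Proteins that bind RNA and arrest translation were the largest role group, and all its 11 genes were within 2-fold of nLung. The log2 fold changes ran from -0.39 for Eif2ak2, the kinase PKR that stops translation on double-stranded RNA, to 0.49 for Oasl1, which in mouse restrains translation of Irf7. Of the 11, 9 were above 0, the median was 0.15, and 0 had an unadjusted p under 0.05. Ifit3, a partner of the cap-sensing Ifit proteins, had the smallest p of the group and read 5.96, 6.06 and 5.74 in KP(l) and 5.63, 5.66, 5.71 and 5.79 in nLung. KP(l) replicates 1 and 2 were above all nLung arrays, and replicate 3 was inside their range. Its log2 fold change was 0.22 (standard error 0.10, unadjusted p = 0.0709, adjusted p = 0.912 by limma), with an exact permutation p of 0.0571, two-sided over the 35 ways to split the arrays, where the smallest possible is 0.0286. Between replicates 1 and 2 of both groups the Ifit3 difference was 0.36, and in the other 3 arrays it was -0.01. The cap sensor Ifit1 differed by 0.00, and the oligoadenylate synthetases that activate RNase L by 0.07 (Oas1a), -0.19 (Oas2) and 0.00 (Oas3).

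Low signal limits part of this group. Oas1a, Oas2, Ddx60 and Ifit2 had a mean below the median of all probe sets, 3.54, and so did Rsad2, Cmpk2, Ifitm1 and Rtp4 elsewhere among the 52. Some genes also carried 1 value in several arrays, as Oas3 did with 4.25 in 4 arrays. Such shared values were found in 21 of the 52 genes and in 55.9% of all probe sets.

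Among the 6 genes of nucleotide and RNA metabolism, 4 were above 0 and the median was 0.13. Cmpk2, a mitochondrial nucleotide kinase, was the 1 gene of the group with an unadjusted p under 0.05, and read 3.90, 3.18 and 4.04 in KP(l) against 3.30, 3.22, 2.95 and 3.18 in nLung. KP(l) replicates 1 and 3 stood above nLung, and replicate 2 lay within it. Its log2 fold change was 0.54 (standard error 0.22, unadjusted p = 0.0431, adjusted p = 0.912 by limma; exact permutation p = 0.0857). Without KP(l) replicate 3 the difference was 0.38, and without replicate 2 it was 0.81. The other 5 genes ran from -0.26 for the RNA helicase Mov10 to 0.37 for Samhd1, which hydrolyzes deoxynucleotides. Between them lay the editing enzyme Adar at 0.07, the exonuclease Isg20 at 0.19 and Rsad2, the radical enzyme viperin, at -0.06.

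Membrane and particle restriction was split, with 5 of 10 genes above 0 and a median of -0.01. The 3 Ifitm genes, whose small membrane proteins hinder fusion of viruses in endosomes, had log2 fold changes of 1 or more, whereas the other 7 ran from -0.43 to 0.42. Ifitm3 read 9.57, 9.37 and 9.54 in KP(l) and 8.94, 7.77, 8.35 and 8.89 in nLung. All KP(l) arrays were above all nLung arrays, and the KP(l) arrays were close together (SD 0.11, n = 3) where nLung spread (SD 0.55, n = 4). On the log2 scale the groups differed by 1.01 (standard error 0.29, unadjusted p = 0.0116, adjusted p = 0.912 by limma; exact permutation p = 0.0571). It lay between 0.77 and 1.16 with any 1 array left out, and the unadjusted p was under 0.05 in each of these 7 fits.

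Ifitm1 read 4.79, 2.48 and 3.76 in KP(l) and 2.22, 2.28, 2.92 and 1.99 in nLung, with replicates 1 and 3 of KP(l) high and replicate 2 inside the nLung range. Its log2 fold change was 1.32 (standard error 0.53, unadjusted p = 0.0427, adjusted p = 0.912 by limma; exact permutation p = 0.0571). KP(l) replicate 1, the highest array, was also the array with the neutrophil sum of 1545, and without it the difference was 0.77, against 1.92 without KP(l) replicate 2. The 6 other arrays had neutrophil sums of 44.9 to 62.5. The alveolar macrophage (2373), T or NK and B cell sums were also highest in KP(l) replicate 1. Of the T or NK markers, only Cd3e, Cd8b1 and Gzma were highest in that array. Of the 7 measured monocyte markers, Fcgr1, C5ar1, Sirpa and Itgam were highest in that array, and Ccr2, Csf1r and Ly6c2 were not. The part of any of these cells in Ifitm1 was not tested.

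Ifitm2 had the largest fold change of the 52 and the widest spread. It read 8.79, 9.82 and 7.76 in KP(l) and 9.19, 7.55, 5.74 and 6.74 in nLung, so that the groups overlapped. The log2 fold change of 1.49 had a standard error of 0.87 (unadjusted p = 0.132, adjusted p = 0.912 by limma; exact permutation p = 0.229). The arrays above 8 were KP(l) replicates 1 and 2 and nLung replicate 1, which were also those with alveolar macrophage sums of 2373, 1520 and 1576. The part of macrophage RNA in Ifitm2 was not tested. In the 4 arrays with sums of 212 to 421, Ifitm2 read 7.76 in KP(l) replicate 3 and 7.55, 5.74 and 6.74 in nLung replicates 2 to 4.

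Of the other 7 genes of the group, 2 were above 0 and 5 below. Bst2, the tether that holds virus particles at the cell surface, differed by 0.42 and the dynamin-like GTPases Mx1 and Mx2 by -0.17 and -0.43. Mx1 spread from 4.71 to 6.54 within KP(l), against 5.57 to 5.96 in nLung. Ly6e read 11.56 in 5 of 7 arrays and 11.01 in KP(l) replicate 1.

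Of the 5 genes at 2-fold or more, 4, namely Ifitm2, Ifitm1, Ifitm3 and Irf7, lie within 310 kb of chromosome 7. This was noticed after the values were seen. The 13 other measured genes of the stretch had log2 fold changes from -0.42 to 1.09 with a median of 0.02, 8 of them above 0. The 2 of the 13 with an unadjusted p under 0.05 were Hras at 1.09 and Ifitm6 at 0.35.

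**Figure D3:**
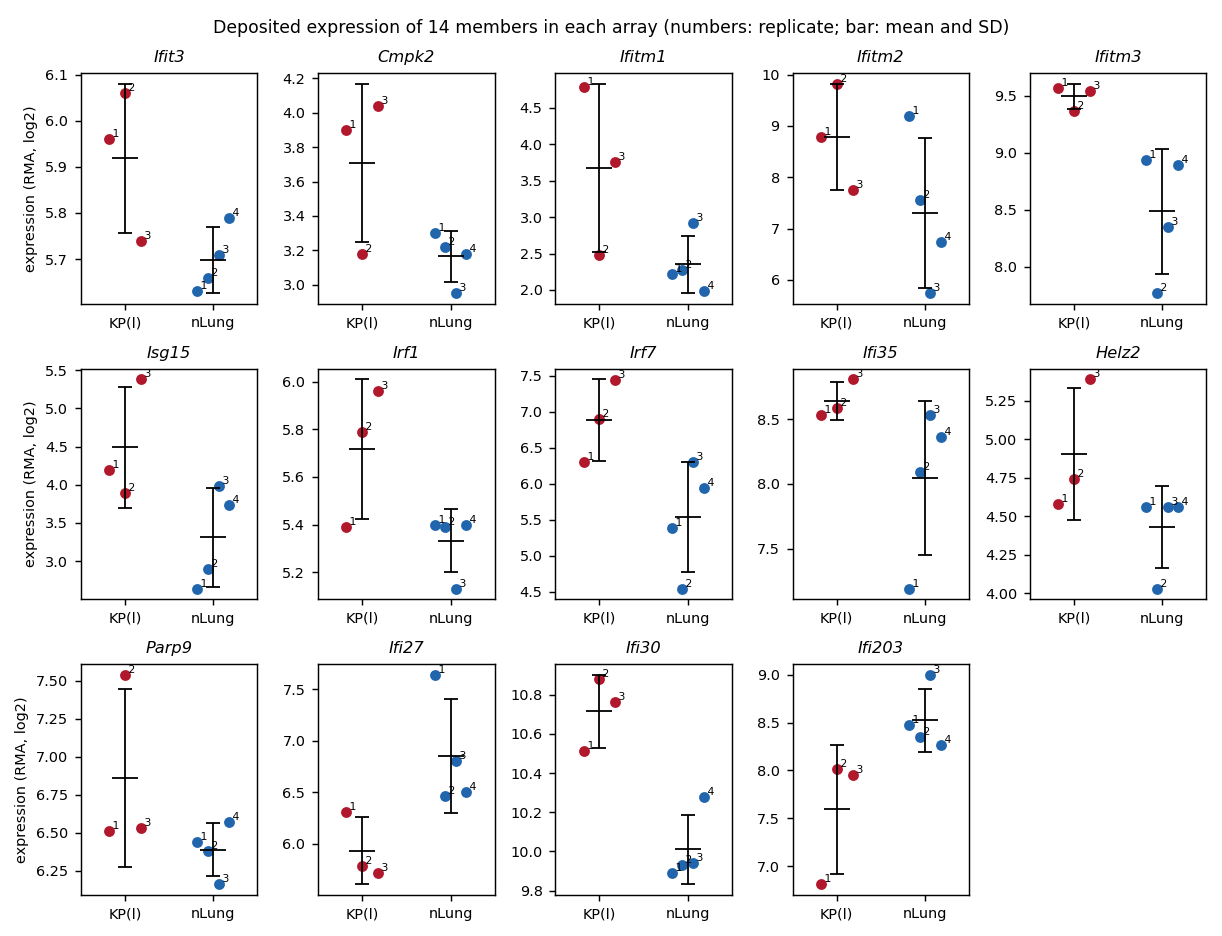
RMA log2 expression in each array of the 14 genes given array by array, with KP(l) in red left of nLung in blue, replicate numbers beside the points, and the mean and SD as bars (each panel has its own axis). The groups do not overlap in Ifitm3, Irf7, Ifi35, Helz2 and Ifi30, which were higher in KP(l), and in Ifi27 and Ifi203, which were lower.

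All 5 genes of ISG15 conjugation and removal were above 0, with a median of 0.24, and 1 of them had an unadjusted p under 0.05. Isg15, the modifier itself, read 4.19, 3.89 and 5.38 in KP(l) and 2.64, 2.90, 3.99 and 3.73 in nLung. KP(l) replicate 3 was the highest array, and nLung replicate 3 was above KP(l) replicate 2, so the groups overlapped. Isg15 differed by 1.17 on the log2 scale (standard error 0.47, unadjusted p = 0.0442, adjusted p = 0.912 by limma; exact permutation p = 0.114). Within the sets of arrays by upper quartile, the difference was 1.27 between replicates 1 and 2 of both groups. It was 1.52 in the other 3 arrays, of which 1 was KP(l). Without KP(l) replicate 3 the difference was 0.73. The enzymes that attach ISG15 were the activating enzyme Uba7 at 0.04, the conjugating enzyme Ube2l6 at 0.24 and the mouse ligase Herc6 at 0.38. Usp18, which removes ISG15 and dampens the interferon receptor, differed by 0.12. The smallest unadjusted p of these 4 was 0.341.

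The 6 transcription factors and their partners had the highest median of the role groups, 0.43, with 5 of 6 above 0. Irf7, the factor known for amplifying interferon alpha production, read 6.30, 6.90 and 7.44 in KP(l) and 5.38, 4.54, 6.30 and 5.94 in nLung. KP(l) replicate 1 and nLung replicate 3 were equal to 2 decimals, and the other KP(l) arrays were above all nLung arrays. Irf7 differed by 1.34 on the log2 scale (standard error 0.46, unadjusted p = 0.0248, adjusted p = 0.912 by limma; exact permutation p = 0.0571). The Irf7 difference was 1.64 between replicates 1 and 2 of both groups and 1.33 in the other 3 arrays, and 1.01 without nLung replicate 2, the lowest array.

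Irf1, which activates interferon genes and is induced strongly by interferon gamma, read 5.39, 5.79 and 5.96 in KP(l) and 5.40, 5.39, 5.13 and 5.40 in nLung. KP(l) replicates 2 and 3 were above nLung, and replicate 1 was level with it. The log2 fold change was 0.38 (standard error 0.16, unadjusted p = 0.0452, adjusted p = 0.912 by limma; exact permutation p = 0.0857). Its unadjusted p stayed under 0.05 in 1 of the 7 fits that leave out an array. Irf2, which opposes Irf1 at the same sites, differed by -0.22.

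Ifi35 and Nmi encode partners that bind each other. Ifi35 read 8.53, 8.59 and 8.81 in KP(l) and 7.19, 8.09, 8.53 and 8.36 in nLung, and KP(l) replicate 1 was only just above nLung replicate 3. Its log2 fold change was 0.60 (standard error 0.32, unadjusted p = 0.105, adjusted p = 0.912 by limma; exact permutation p = 0.143), and without nLung replicate 1 it was 0.31. Nmi differed by 0.32. Helz2, a helicase that assists nuclear receptors, read 4.58, 4.74 and 5.39 in KP(l) and 4.56, 4.03, 4.56 and 4.56 in nLung. The groups did not overlap, although KP(l) replicate 1 lay just above the value that 3 nLung arrays share. Its log2 fold change was 0.47 (standard error 0.24, unadjusted p = 0.0863, adjusted p = 0.912 by limma; exact permutation p = 0.0286), and without KP(l) replicate 3 it was 0.23.

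The 7 genes of the PARP and TRIM families and signal adaptors had a median of 0.08, and 0 had an unadjusted p under 0.05. Parp9, an ADP-ribosylating enzyme of the interferon response, had the smallest p and read 6.51, 7.54 and 6.53 in KP(l) against 6.44, 6.38, 6.16 and 6.57 in nLung. KP(l) replicate 2 stood alone, and the other 2 KP(l) arrays lay below nLung replicate 4. The log2 fold change of 0.47 (standard error 0.27, unadjusted p = 0.126, adjusted p = 0.912 by limma; exact permutation p = 0.0857) was 0.13 without KP(l) replicate 2. The other 6 ran from -0.07 for the MAVS adaptor Trim14 to 0.25 for Trim25, a ubiquitin ligase of the RIG-I pathway, with Parp12 at 0.11, Parp14 at -0.07, the antibody receptor Trim21 at -0.02 and Trafd1 at 0.08.

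The 7 remaining interferon-induced genes differed in both directions. Ifi30 was higher and Ifi27 and Ifi203 were lower in KP(l) with an unadjusted p under 0.05, and the median of the 7 was -0.21. Ifi30, the lysosomal thiol reductase GILT that unfolds antigens for presentation, read 10.51, 10.88 and 10.76 in KP(l) and 9.89, 9.93, 9.94 and 10.28 in nLung. All KP(l) arrays were above all nLung arrays. Their means differed by 0.71 on the log2 scale, a fold of 1.63 (standard error 0.14, unadjusted p = 0.00161, adjusted p = 0.816 by limma; exact permutation p = 0.0286). The difference stayed between 0.62 and 0.81 with any 1 array left out, and was 0.78 and 0.65 within the sets of 4 and 3 arrays. KP(l) replicate 3, with the lowest alveolar macrophage sum of the 7 arrays (212), read 10.76, above every nLung value. This is 1 array, and the part of macrophage RNA in Ifi30 was not tested.

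Ifi27, a small mitochondrial and nuclear envelope protein, read 6.31, 5.78 and 5.71 in KP(l) and 7.64, 6.46, 6.80 and 6.50 in nLung. All KP(l) arrays lay below all nLung arrays, and nLung replicate 1 was the highest. Ifi27 differed by -0.92 on the log2 scale (standard error 0.32, unadjusted p = 0.0254, adjusted p = 0.912 by limma; exact permutation p = 0.0286). nLung replicate 1 was also the array in which 6 epithelial or tumor cell markers summed to 866, against 194 to 324 in KP(l). The other nLung arrays had sums of 259 to 346, and Krt18 lay below the median of all probe sets on average. Of the 6, only Sftpc was highest in nLung replicate 1, at 9.37 against 4.54 to 7.05 in the other arrays. Epcam, at 6.75, was lowest of the nLung arrays in that array. Without that array the Ifi27 difference was -0.66, and the part of epithelial RNA in it was not tested.

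Ifi203, a member of the PYHIN family of DNA-binding proteins, read 6.81, 8.02 and 7.95 in KP(l) and 8.47, 8.35, 9.0 and 8.27 in nLung. The groups did not overlap, and KP(l) replicate 1 was well below the rest. Ifi203 differed by -0.93 on the log2 scale (standard error 0.34, unadjusted p = 0.0294, adjusted p = 0.912 by limma; exact permutation p = 0.0286), and -0.54 without KP(l) replicate 1. The mouse PYHIN genes are close copies of each other, so probes may not separate them fully. The other 4 genes ran from -0.48 for Tdrd7 to 0.11 for Lgals3bp, with the apoptosis factor Xaf1 at -0.21 and Epsti1 at -0.02.

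The array with the highest value differed from gene to gene. KP(l) replicate 3 was the highest array for 13 genes (25%, against 9.96% of all probe sets, ties left out), among them Isg15, Irf7, Irf1, Ifi35, Nmi, Helz2 and Cmpk2. KP(l) replicate 2 was highest for 10, among them Ifit3, Oasl2, Bst2, Ifitm2, Mx1, Parp9 and Ifi30, and replicate 1 for 4 (7.69%, against 19.3%). nLung replicate 1 was also highest for 13 (25%, against 16.8%), among them Ifit1, Eif2ak2, Rsad2, Ly6e, Mx2, Usp18, Trim14, Ifi27 and Tdrd7. nLung replicate 2 was highest for 2 (3.85%, against 18.9%) and lowest for 13 (25%, against 13.6%), Irf7, Ifitm3, Bst2, Herc6 and Usp18 among them. By role, the transcription factors lay 0.50 above their mean over the arrays in KP(l) replicate 3 and the ISG15 genes 0.48, as medians, whereas the ISG15 genes lay -0.66 from it in nLung replicate 2.

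**Figure D4:**
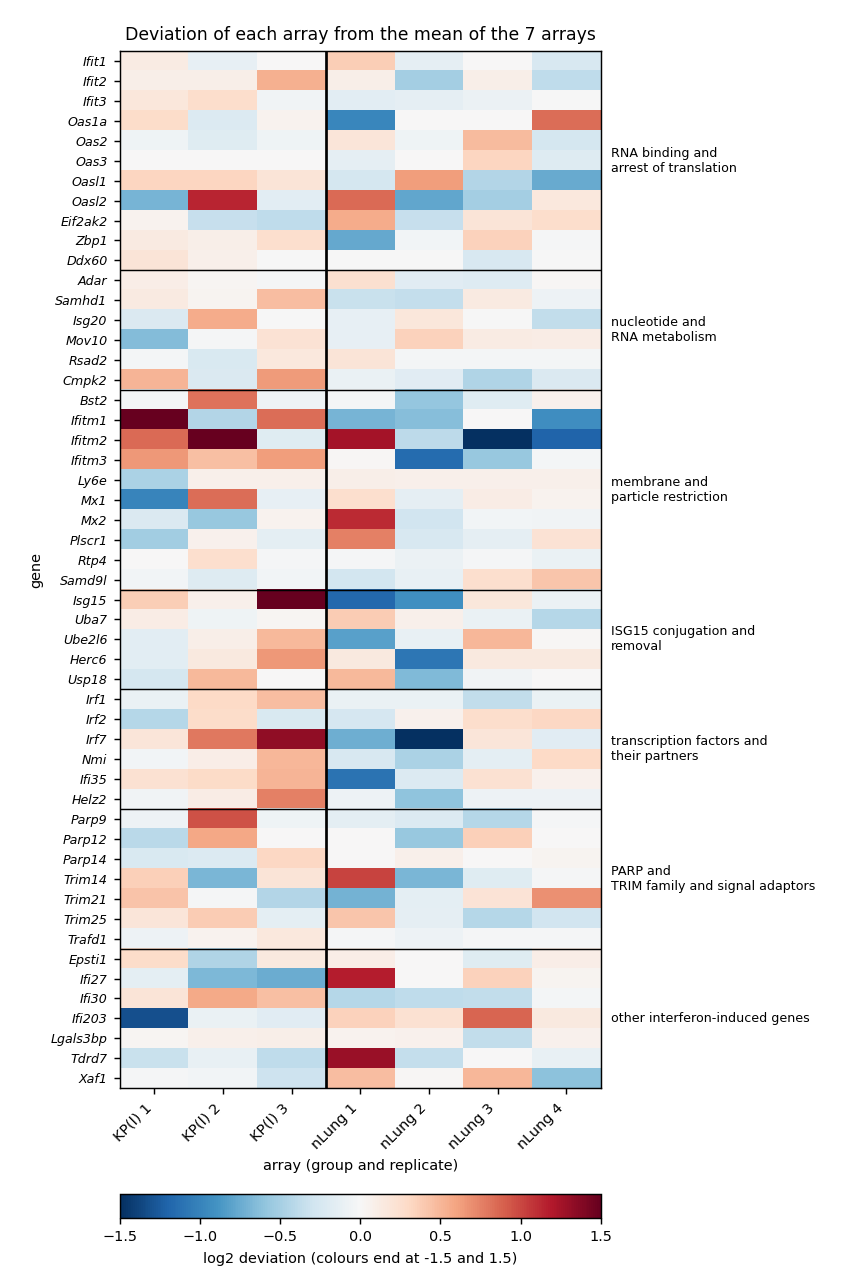
Deviation of each array from the 7-array mean (log2; red above, blue below, the scale printed under the map) for the 52 genes by role group, with KP(l) left of the black line and nLung right of it. KP(l) replicate 3 and nLung replicate 1 were each the highest array for 13 genes, and nLung replicate 2 the lowest for 13.

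Genes with and without element letters in their start-site windows were set side by side. The 15 genes with ISRE core letters had a median log2 fold change of 0.00, 9 were above 0, and they ran from -0.93 (Ifi203) to 1.49 (Ifitm2). The 26 genes without them had a median of 0.24, 21 were above 0, and they ran from -0.35 (Plscr1) to 1.34 (Irf7). With GAS letters the median was 0.28 over 12 genes, and without them 0.15 over 29. These are descriptions, and the difference between the sets of genes was not tested. More than 1 ISRE core was found in Isg15 at 1.17, Ifitm3 at 1.01, Bst2 at 0.42, Ifit3 at 0.22, Ddx60 at 0.15, Oas1a at 0.07, Ifit1 at 0.00 and Trim21 at -0.02.

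**Figure D5:**
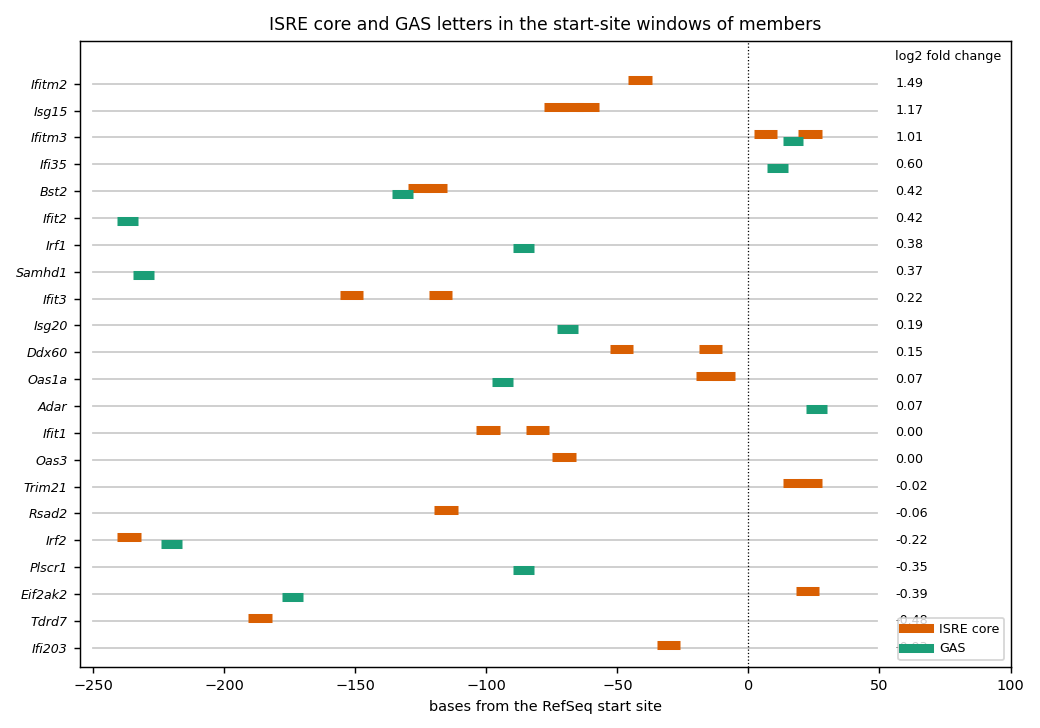
Positions of ISRE core letters (orange) and GAS letters (green) in the start-site windows of the genes that hold either, in bases from the RefSeq start site (dotted line), ordered by log2 fold change, KP(l) minus nLung, printed at the right. Genes with ISRE core letters run from 1.49 at the top to -0.93 at the bottom.

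Other genes of the pathway were read from a list of 92 names, 83 of which were measured. Of the 83, 8 had a higher and 4 a lower mean in KP(l) with p under 0.05 before adjustment (9.64% and 4.82%, against 2.62% and 2.24% of all probe sets), 0 were called, and the median log2 fold change was 0.03. Among 15 measured interferon ligands, 7 of them below the median of all probe sets, Ifna4 was 5.54, 5.55 and 5.33 in KP(l) and 6.45, 6.16, 6.84 and 6.56 in nLung, without overlap. Its log2 fold change was -1.03 (standard error 0.17, unadjusted p = 5.8e-04, adjusted p = 0.735 by limma). Interferon alpha genes are near-identical copies, so its probes may read relatives. The 6 measured receptor chains, kinases and ISGF3 parts ran from -1.31 to 0.47, with 4 above 0. The 1 with an unadjusted p under 0.05 was the receptor chain Ifnar1 at 0.35. The lowest was Irf9, a part of ISGF3 (unadjusted p = 0.108 by limma). Irf9 read 3.59, 6.17 and 6.69 in KP(l) and 6.78, 7.01, 6.69 and 6.69 in nLung, so KP(l) replicate 1 was far below the rest. Of 15 sensors and adaptors, the endosomal RNA sensor Tlr7 differed by 0.76, at a mean below the median of all probe sets, and the mitochondrial adaptor Mavs by -0.46. Ifnar1, Tlr7 and Mavs had an adjusted p of 0.912 by limma.

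Negative regulators held the gene with the smallest p of the pathway. Socs1, which blocks Janus kinases downstream of type I interferon and interferon gamma receptors, read 6.06, 6.08 and 6.09 in KP(l) and 4.95, 4.21, 4.78 and 4.61 in nLung. The KP(l) arrays were nearly level and all above nLung, and the difference was 1.44 on the log2 scale (standard error 0.18, unadjusted p = 1.08e-04, adjusted p = 0.502 by limma). Pias1, a SUMO ligase that restrains STAT proteins, differed by -0.80 (adjusted p = 0.912 by limma). Among 41 measured interferon-induced genes outside the 52, 5 had a higher and 1 a lower mean with p under 0.05 before adjustment (12.2% and 2.44%, against 2.62% and 2.24% of all probe sets). The 3 with the smallest p were Gbp2 at 1.02, Ifi47 at 1.03 and Gbp3 at 0.99, GTPases known above all as products of interferon gamma, and the 1 lower was Parp10 at -0.40. No nLung array reached the KP(l) range in these 3 GTPases, or in 4 of the 41 genes in all, where 2.12% of all probe sets were apart in this direction.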

How the data were processed

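RNA of sorted lung cDC1 was read on 7 arrays, 3 KP(l) and 4 nLung. The deposited values are log2 expression that the authors made by RMA (background correction, quantile normalization and probe summary per gene), which per the labels is the one processing tool named, and no probe set was left out. RMA sets the probes of all arrays to 1 distribution, so differences are relative to the other genes of an array. Groups came from the sample labels. Group means of these log2 values, KP(l) minus nLung, were tested with limma 3.58.1 under R 4.3.3, and p-values were adjusted after Benjamini and Hochberg across the 25428 probe sets. The SAM test of the study, which estimates its false discovery rate by permutation, was not run here. Its cut-offs were carried over to another measure, as a limma adjusted p of 0.05 and 2-fold. The study reported differentially expressed transcripts in these arrays by its own rule, so the absence of calls here holds for limma alone. The study also reported that transcripts higher in tumor cDC1 fell preferentially in antigen processing, trafficking within cells and the interferon alpha pathway. No test of gene sets was run here. Exact permutation tests were two-sided over the 35 splits of the arrays. The number of arrays limits the precision, and nothing in the labels ties same-numbered replicates of the groups to each other.

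The genes, role groups and lists were chosen with earlier results of these data known. Values in each array are given for members with an unadjusted p under 0.05, 2-fold or more, or groups that do not overlap, and for the smallest p of each role group. Of the pathway, up to 3 genes a direction and group with an unadjusted p under 0.05 are named, and Irf9 as the low end of its group. Alternatives were an intensity trend, array weights, repeated quantile normalization, median centring, genes with a mean above the median, a replicate block, a block for the sets of arrays, each array left out, and linear means. Differences within the sets of arrays were added after seeing the data. Windows and coordinates are RefSeq, GRCm38.p6. Tables were handled with pandas 2.3.3 in Python 3.11.15, and figures drawn with matplotlib 3.10.9.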

Additional observations from a re-analysis of the deposited data

Results flagged for a closer look

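The 4 nLung arrays were read for single arrays far from the other 3, and 9 of the 52 genes had one. A gap of this size is found by chance in about 1 of 20 groups of 4 when no values are shared. Where the other 3 arrays share a value any difference counts, as in Ddx60, Rsad2, Ly6e, Herc6, Helz2 and Trafd1. Values shared by arrays occurred in 55.9% of all probe sets, so the rate of 1 in 20 does not apply here. The share of all probe sets with such a gap was not counted, and the 9 cannot be read as an excess. nLung replicate 2 was low in Herc6 (4.75, the others 5.98), Helz2 (4.03, the others 4.56) and Trafd1 (8.26, the others 8.32). nLung replicate 3 was low in Ddx60 (2.05, the others 2.28), Irf1 (5.13, the others 5.39 to 5.40) and Lgals3bp (7.90, the others 8.32 to 8.33). nLung replicate 1 was high in Rsad2 (2.78, the others 2.55) and Ly6e (11.57, the others 11.56), and nLung replicate 4 was high in Ifi30 (10.28, the others 9.89 to 9.94). Without nLung replicate 4 the Ifi30 difference was 0.79. KP(l), with 3 arrays, was not searched in this way.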

How the results depend on the processing

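No member was called under any alternative, and the smallest adjusted p of a member by limma was 0.341 (Isg15) over 14 alternative fits. In all of these fits 38 of the 52 genes kept the sign of their log2 fold change. With any 1 array left out, the count of genes higher at an unadjusted p under 0.05 was 3 (without KP(l) replicate 3) to 6 (without nLung replicate 3) and of lower ones 0 (without nLung replicate 3) to 3, where the shares of all probe sets were 2.01% to 4.23% and 1.56% to 2.91%, and the median log2 fold change was 0.069 (without nLung replicate 2) to 0.19. Genes whose groups do not overlap numbered 6 to 9 upward (3.19% to 8.46% of all probe sets) and 2 to 3 downward (2.83% to 5.65%), counts that leaving out an array can only keep or raise. Over the same 7 fits the unadjusted p was under 0.05 in all 7 for Ifi30 and Ifitm3, in 4 for Irf7, Ifi27 and Ifi203, in 2 for Ifitm1 and Isg15, and in 1 for Irf1 and Cmpk2. With genes above the median mean alone, 4 were higher among the 44 left (2.87% of those probe sets). Blocking on the sets of arrays gave 8 higher and 2 lower (2.95% and 2.59% of all probe sets), Ifi35 (0.69) and Helz2 (0.55) among the 8. With this block the unadjusted limma p was 9.38e-05 for Isg15 (1.37) and 0.00163 for Irf7 (1.51). Cmpk2 (0.56), Ifitm1 (1.35) and Irf1 (0.40) had log2 fold changes no smaller than without the block and an unadjusted p above 0.05. Ifit3 changed sign in the set of 3 arrays (-0.011). The causes were not tested.

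The labels do not say whether same-numbered replicates of the groups were paired. Deviations of same-numbered arrays correlated at 0.08, 0.02 and 0.19 over probe sets, and whether this reflects pairing was not tested. With the replicate number as a block 6 genes were higher and 2 lower (2.71% and 2.43% of all probe sets), the median was 0.15 and 0 were called. With that block Isg15 (1.31) had an unadjusted limma p of 0.00161. Cmpk2 (0.55), Ifitm1 (1.20) and Irf1 (0.41) had an unadjusted p above 0.05 at log2 fold changes close to those without it.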
